A study of Mus musculus with 32 samples.

Results

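The transcripts described here come from 44 genes of DNA replication and cell division, taken by name from the 27326 genes that stand in either expression table of the series. They divide into 24 S-phase members, which copy DNA or supply its building blocks, and 20 mitotic members, which condense, capture and separate the chromosomes. The members were listed by their known roles, with earlier results of these data known, and each of them was found in both tables by its Ensembl identifier. A further 44 S-phase and 60 mitotic genes served for comparison.

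The study measured RNA in lymphoid precursors sorted from the thymus of mouse embryos at day E15.5 and day E19.5. All groups came from mice of the strain labelled 5x polychromILC, which carries fluorescent reporters of lymphoid transcription factors, so each comparison is between gates of the same strain. At both days, cells of the first double-negative stage (DN1) were sorted into 4 gates by the reporters for BCL11b and ID2: BCL11b-ID2-, BCL11b-ID2+, BCL11b+ID2+ and BCL11b+ID2-. At E19.5 another DN1 gate, BCL11blowID2low, was taken as well, and DN2 cells, the next stage, were sorted at both days. There were 3 libraries of every population except E15.5 DN2, which had 2. The E19.5 libraries carry the numbers 1, 2 and 4, and values per library are given in that order. The labels do not say whether the libraries of a gate are from separate animals or from pools, so p-values measure the spread between these libraries. The gates rest on reporter fluorescence, and the groups of E15.5 rest also on a match between column numbers and barcode numbers.

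BCL11b is a transcription factor that locks precursors into the T-cell lineage, and ID2 blocks E proteins in innate lymphoid and natural killer cells. In a dividing cell, the origin recognition machinery loads the MCM helicase in G1 phase, CDC45 and the GINS proteins switch it on at the start of S phase, and polymerases copy DNA behind the sliding clamp PCNA. Transcripts of these proteins rise as E2F factors are released from the retinoblastoma proteins. The transcripts of mitosis follow in G2 phase, when B-MYB, FOXM1 and the MuvB core act at promoters with CHR and CCAAT elements. The thymus depends on division at these stages, because few precursors enter it and they multiply before they rearrange their receptor genes. In RNA from bulk sorted cells, fewer cycling cells and less RNA per cycling cell cannot be told apart.

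Promoter windows from RefSeq (build GRCm38.p6, 250 bases before to 50 after each start) were found for 35 of the 44 members, with 37 windows in all. Those of Gins1, Gins2, Mcm4, Ccne2, Pole, Aurkb, Kif20a, Ccna2 and Tpx2 were not matched. The E2F-type motifs TTTCGCGC, TTTGGCGC and TTTCCCGC were searched on both strands. At least 1 of them stood in 9 of 21 S-phase windows (42.9%), in 1 of 16 mitotic windows (6.25%) and in 606 of all 32851 windows (1.84%). The CHR motif TTTGAA had the opposite distribution, in 2 of 21 S-phase windows (9.52%), 11 of 16 mitotic windows (68.8%) and 5878 of all windows (17.9%). The CCAAT box stood in 15 of 21 S-phase windows (71.4%), 14 of 16 mitotic windows (87.5%) and 12289 of all windows (37.4%). CHR and CCAAT occurred together in 11 mitotic windows, against 2 S-phase windows and 2284 of all windows (6.95%). A match describes letters in the window and is not evidence of binding.

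Shown here are the 3 S-phase and the 3 mitotic members with 1 window each that were called in most comparisons at E19.5, so that the letters can be read beside their values. Mcm2 ties with Mcm5, each called in 2 comparisons, and stands first in the list of members. The window of Rrm1 at chr7:102441445-102441744 (plus strand) belongs to ENSMUSG00000030978, that of Mcm6 at chr1:128359656-128359955 (minus strand) to ENSMUSG00000026355 and that of Mcm2 at chr6:88898731-88899030 (minus strand) to ENSMUSG00000002870. For the mitotic members, the window of Mki67 at chr7:135716330-135716629 (minus strand) belongs to ENSMUSG00000031004, that of Top2a at chr11:99024140-99024439 (minus strand) to ENSMUSG00000020914 and that of Ube2c at chr2:164769679-164769978 (plus strand) to ENSMUSG00000001403. Capitals mark E2F-type, CHR and CCAAT matches on either strand, so that ATTGG and TTCAAA are reversed CCAAT and CHR matches.
Rrm1: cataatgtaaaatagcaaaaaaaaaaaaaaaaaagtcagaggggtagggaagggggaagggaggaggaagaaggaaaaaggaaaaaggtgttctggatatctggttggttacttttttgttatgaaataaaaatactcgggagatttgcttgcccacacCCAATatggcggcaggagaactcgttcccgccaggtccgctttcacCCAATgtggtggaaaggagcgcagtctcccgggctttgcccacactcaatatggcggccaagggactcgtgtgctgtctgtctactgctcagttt
Mcm6: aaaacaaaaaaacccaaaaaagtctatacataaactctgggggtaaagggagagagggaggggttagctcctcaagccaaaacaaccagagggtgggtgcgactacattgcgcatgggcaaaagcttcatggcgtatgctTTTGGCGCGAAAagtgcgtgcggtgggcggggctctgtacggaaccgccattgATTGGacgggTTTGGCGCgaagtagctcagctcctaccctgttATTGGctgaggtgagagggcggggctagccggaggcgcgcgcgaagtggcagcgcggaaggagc
Mcm2: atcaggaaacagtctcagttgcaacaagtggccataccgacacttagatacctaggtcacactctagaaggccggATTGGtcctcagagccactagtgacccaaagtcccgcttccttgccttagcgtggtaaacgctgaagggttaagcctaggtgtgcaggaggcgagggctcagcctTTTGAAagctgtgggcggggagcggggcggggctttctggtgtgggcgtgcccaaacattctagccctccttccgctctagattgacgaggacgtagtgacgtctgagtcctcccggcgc
Mki67: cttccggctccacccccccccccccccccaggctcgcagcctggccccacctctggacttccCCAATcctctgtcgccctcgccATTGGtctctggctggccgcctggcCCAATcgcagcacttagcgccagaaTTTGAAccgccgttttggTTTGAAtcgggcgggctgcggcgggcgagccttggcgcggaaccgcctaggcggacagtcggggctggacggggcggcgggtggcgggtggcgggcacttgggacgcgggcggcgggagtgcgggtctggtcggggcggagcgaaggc
Top2a: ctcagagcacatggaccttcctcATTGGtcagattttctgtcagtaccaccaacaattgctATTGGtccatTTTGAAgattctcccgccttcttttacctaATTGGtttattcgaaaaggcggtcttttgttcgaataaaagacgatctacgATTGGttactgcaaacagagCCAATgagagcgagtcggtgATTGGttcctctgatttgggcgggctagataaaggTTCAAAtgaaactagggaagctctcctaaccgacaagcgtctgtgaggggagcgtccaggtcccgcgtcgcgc
Ube2c: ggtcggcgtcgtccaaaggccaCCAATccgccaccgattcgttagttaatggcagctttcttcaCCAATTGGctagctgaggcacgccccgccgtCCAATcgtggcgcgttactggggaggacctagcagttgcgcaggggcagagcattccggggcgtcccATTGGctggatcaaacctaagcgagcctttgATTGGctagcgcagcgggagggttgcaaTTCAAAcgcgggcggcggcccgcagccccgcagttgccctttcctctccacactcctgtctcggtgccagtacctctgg

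The Mcm6 window held 3 E2F-type matches, of which 2 overlap on opposite strands. The Rrm1 and Mcm2 windows held none, and the window of Mcm5, not printed, held 2. Top2a and Mki67 carried 2 CHR matches each, with 6 and 3 CCAAT matches. The Ube2c window held 1 CHR and 6 CCAAT matches, of which 2 overlap in a palindrome.

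Depth, as whole reads worked back from the deposited values, was between 12030749 and 20709387 per library at E15.5 and between 2599470 and 9498133 at E19.5, with 50.8 to 80.0% and 28.7 to 58.8% from mitochondrial ribosomal RNA. At E19.5 the Bcl11b transcript was higher in BCL11b-positive than in BCL11b-negative gates, at 1469 to 2076 normalised counts in BCL11b+ID2- and 2.89 to 28.8 in BCL11b-ID2-. It did not part BCL11blowID2low, at 376 to 491, from BCL11b+ID2+, at 409 to 596. Id2 followed the gates, at 1278 to 1540.5 in BCL11b-ID2+, 159 to 183 in BCL11blowID2low and 18.2 to 24.6 in BCL11b-ID2-. Ptprc, the leukocyte antigen CD45, was present in every library, and Il2ra, the CD25 chain that defines DN2, was highest there (E19.5 7149 to 8762, next 2038 to 2626 in BCL11b+ID2+). At E15.5, however, 1 BCL11b-ID2+ library held Bcl11b at 509, Id2 was 85 to 2771 in BCL11b+ID2+ against 17.5 to 126 in BCL11b-ID2-, with overlap, and Il2ra reached 3997 in the BCL11b-ID2- gate. The stages were normalised in separate tables and were not set against each other by any test. Unless another tool is named, adjusted p is from limma on log2(value + 1), by the Benjamini-Hochberg method over all genes kept, 10289 for E15.5 and 13840 for E19.5, and a gene is called where it is under 0.05. Folds are ratios of mean normalised counts.

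At E19.5 the S-phase and the mitotic members were not distributed alike over the gates. The summed normalised counts of the mitotic members were lowest in BCL11b-ID2-, at 6706 to 7869, and reached 15318 to 20975 in BCL11blowID2low and 11659 to 15444 in BCL11b+ID2-. DN2 held 12059 to 13155, BCL11b-ID2+ 9645 to 11785 and BCL11b+ID2+ 8671 to 10983. Mki67 and Top2a made up 39.1 to 51.0% of these mitotic sums. By the mean log2(value + 1) of the mitotic members, BCL11b-ID2- was not apart, at 7.43 to 7.75. It overlapped BCL11b+ID2+ at 7.67 to 7.81 and BCL11b-ID2+ at 7.71 to 7.99. The S-phase sum ran differently, with DN2 highest at 11705 to 12846 and BCL11b-ID2- next at 8554 to 10219.8, overlapping BCL11blowID2low at 7894 to 9599.8. BCL11b+ID2- held 5451 to 7599, BCL11b-ID2+ 4941 to 6705 and BCL11b+ID2+ 4184 to 6647, and these 3 overlapped each other.

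The difference between the mean log2(value + 1) of mitotic and of S-phase members puts this in 1 number per library. It was -0.73 to -0.16 in BCL11b-ID2- and -0.11 to -0.04 in DN2. These 6 libraries lay below each of the other 12, which stood at 0.25 to 0.62 in BCL11b-ID2+, 0.37 to 0.91 in BCL11b+ID2+, 0.32 to 1.03 in BCL11b+ID2- and 0.42 to 0.76 in BCL11blowID2low. The mitotic sums of DN2 lay inside the range of BCL11b+ID2-, and those of BCL11b-ID2- below every other library. At E15.5 the same difference was -0.16 to -0.04 in BCL11b-ID2-, 0.21 to 1.08 in BCL11b-ID2+, 1.19 to 2.94 in BCL11b+ID2+, 1.01 to 1.65 in BCL11b+ID2- and -0.25 to 1.04 in DN2. These summaries carry no test, and the place of 0 depends on which genes are listed (Kif11, near 0, is among them), so only the order of libraries is read.

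**Figure D1:**
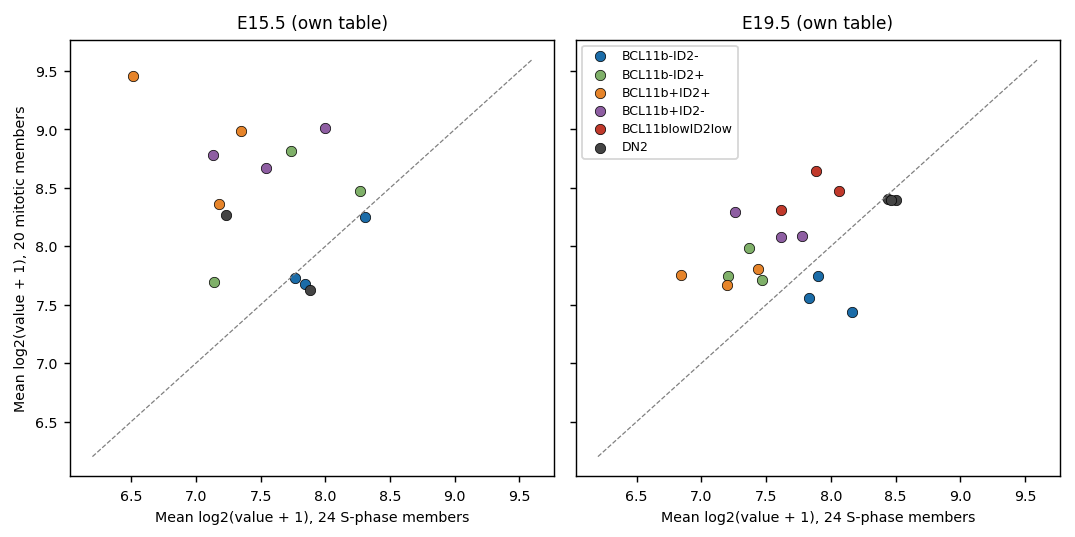
Each point is 1 library, placed by its mean log2(value + 1) over the 24 S-phase members (x axis) and the 20 mitotic members (y axis), for E15.5 (left) and E19.5 (right, colours as in the legend); the dashed line marks equal means. At E19.5 the BCL11b-ID2- and DN2 libraries lie below the line and the other 12 above it; the place of the line depends on which genes are listed.

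Over all populations of E19.5 together, 16 of 24 S-phase and 9 of 19 tested mitotic members differed by the moderated F test, beside 32.9% of all genes. The S-phase calls included each of the MCM subunits, Gins1, Gins2 and Cdc45 of the active helicase, Rrm1, Rrm2 and Tyms of nucleotide supply, and Pola1, Uhrf1, Chaf1b and Mcm10. The mitotic calls were Ube2c, Mki67, Top2a, Nusap1, Bub1b, Bub1, Aurka, Tpx2 and Ccnb1. Kif11, a spindle kinesin at chr19:37376403-37421859 (GRCm38, plus strand; ENSMUSG00000012443), was not tested: it is listed at 0 in 17 of 18 libraries at E19.5, with at most 1.64 normalised counts at E15.5.

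**Figure D2:**
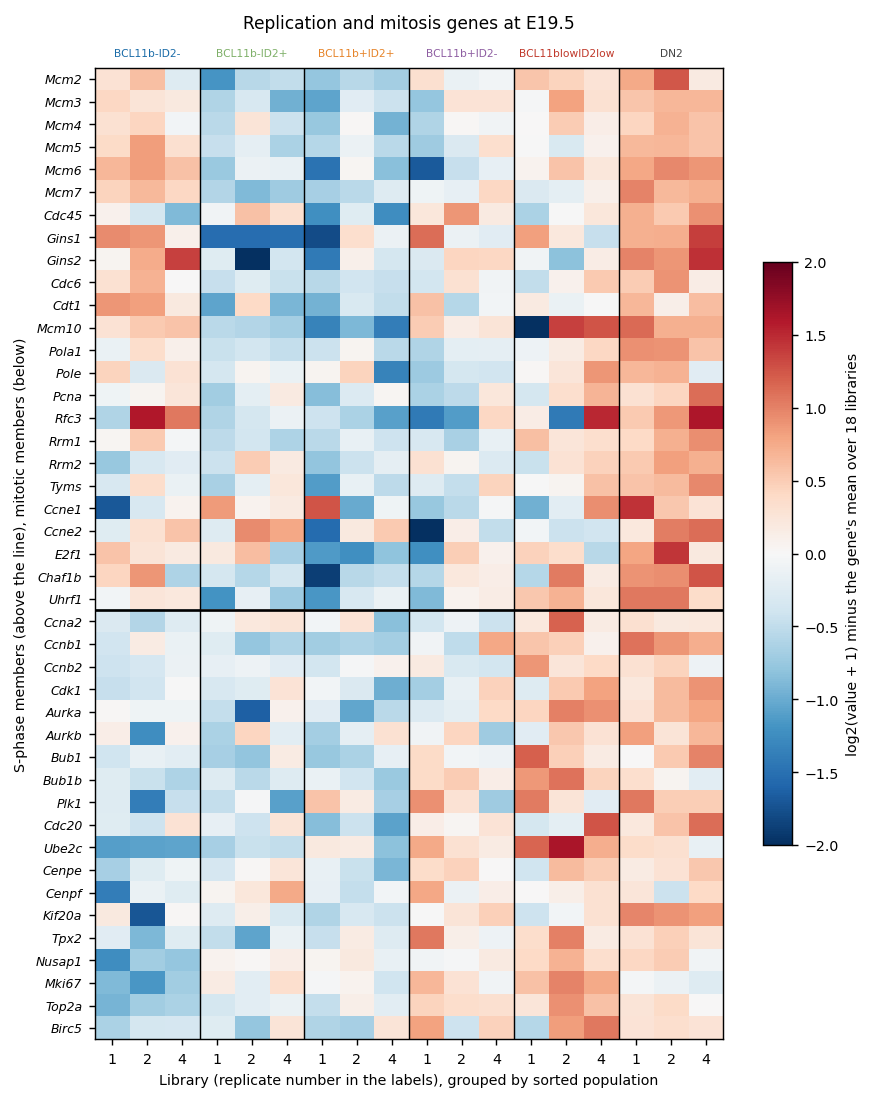
Heat map of 43 members (Kif11 left out) in the 18 E19.5 libraries, with genes in rows (S-phase above the line) and libraries in columns by population; colour is log2(value + 1) minus the gene's mean over the 18 libraries, and the scale ends at -2 and 2. MCM rows are mostly red in DN2 and BCL11b-ID2- and mostly blue in BCL11b-ID2+ and BCL11b+ID2+, while Mki67, Top2a, Nusap1 and Ube2c are bluest in BCL11b-ID2-.

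Among the S-phase members at E19.5, Mcm2, a subunit of the helicase ring, stood at 448, 556 and 307 normalised counts in BCL11b-ID2-, 162, 249 and 259.8 in BCL11b-ID2+ and 215, 249.8 and 229.5 in BCL11b+ID2+. It stood at 458, 334 and 355 in BCL11b+ID2-, 543, 502 and 443 in BCL11blowID2low and 625, 868 and 418 in DN2. Both ID2-positive gates lay below every library of the other 4 populations, which overlapped each other. Mcm5, of the same ring, stood at 400.1, 548 and 384 in BCL11b-ID2- and 481, 484 and 456 in DN2. It was 222, 272 and 197 in BCL11b-ID2+, 207, 282 and 210.4 in BCL11b+ID2+, 187, 249.6 and 386 in BCL11b+ID2- and 304, 247 and 324 in BCL11blowID2low. DN2 was clear of these 4 gates, and BCL11b-ID2- was clear of all but BCL11b+ID2-, whose library 4 it met.

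Pcna, the clamp that holds polymerases on DNA, overlapped far more. It stood at 453, 499 and 569 in BCL11b-ID2-, 296, 417 and 543 in BCL11b-ID2+, 265, 397 and 491 in BCL11b+ID2+, 307, 331 and 561 in BCL11b+ID2-, 377, 607 and 766 in BCL11blowID2low and 589, 643 and 1035 in DN2. DN2 lay above every library of the 4 gates other than BCL11blowID2low. Rrm2, the regulatory subunit of ribonucleotide reductase, was 221, 299 and 322 in BCL11b-ID2-, 279.6, 534 and 425 in BCL11b-ID2+ and 217, 277 and 332 in BCL11b+ID2+. In BCL11b+ID2- it was 463, 388 and 311, in BCL11blowID2low 276, 458 and 517 and in DN2 539, 666 and 616. The 3 DN2 libraries were higher than all 15 DN1 libraries. Tyms, which makes thymidylate, was 228, 363 and 259 in BCL11b-ID2-, 181, 247 and 334 in BCL11b-ID2+, 130.0, 255 and 197 in BCL11b+ID2+, 238, 204 and 386 in BCL11b+ID2-, 284, 294 and 429 in BCL11blowID2low and 423, 442 and 556 in DN2. Only BCL11blowID2low, with library 4, reached the DN2 range.

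Among the mitotic members, Mki67, which coats mitotic chromosomes and is the common marker of cycling cells, stood at 1548, 1269.5 and 1752 in BCL11b-ID2-, 3178, 2445 and 3581 in BCL11b-ID2+ and 2797, 2979 and 2163 in BCL11b+ID2+. It stood at 4502, 3480.5 and 2716 in BCL11b+ID2-, 4271, 5626 and 4832 in BCL11blowID2low and 2755, 2630.4 and 2368 in DN2. The BCL11b-ID2- libraries were lower than the 15 others, and BCL11blowID2low overlapped the upper end of BCL11b+ID2-. Top2a, the topoisomerase that untangles sister chromatids, was 1233, 1450.4 and 1511 in BCL11b-ID2-, 1839, 2027 and 2129.9 in BCL11b-ID2+, 1689.6, 2535 and 2033 in BCL11b+ID2+, 3191, 2981 and 2917 in BCL11b+ID2-, 2755, 4425 and 3509 in BCL11blowID2low and 2807, 3069.9 and 2351 in DN2. Here too BCL11b-ID2- lay below all other libraries, while the ranges of BCL11b+ID2-, BCL11blowID2low and DN2 met.

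Cdk1, Ccnb1 and Aurkb overlapped between more gates than Mki67 and Top2a did. The kinase Cdk1, which starts mitosis, was 155, 164 and 214 in BCL11b-ID2-, 172, 180.4 and 259.8 in BCL11b-ID2+, 207, 175 and 108 in BCL11b+ID2+, 134, 194 and 294 in BCL11b+ID2-, 179, 309 and 374 in BCL11blowID2low and 249, 332 and 402 in DN2. Each gate in that order overlapped the next, and DN2 lay above BCL11b-ID2- and BCL11b+ID2+. Ccnb1, its cyclin B1 partner, was 59.8, 88.3 and 71.1 in BCL11b-ID2-, 65.9, 45.3 and 50.8 in BCL11b-ID2+, 48.1, 50.9 and 48.8 in BCL11b+ID2+, 74.6, 54.6 and 135 in BCL11b+ID2-, 116, 109.6 and 83.1 in BCL11blowID2low and 167, 145 and 130.1 in DN2. DN2 was above every library except library 4 of BCL11b+ID2-. Aurkb, the Aurora kinase of the chromosomal passenger complex, was 342, 132 and 330.4 in BCL11b-ID2-, 201, 420.0 and 269 in BCL11b-ID2+, 196, 277 and 387 in BCL11b+ID2+, 297, 422 and 191 in BCL11b+ID2-, 267, 457 and 382 in BCL11blowID2low and 554, 376 and 499 in DN2. All populations overlapped for Aurkb except DN2 with BCL11b-ID2-.

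Per kilobase of annotated exon, the most abundant member differed between the gates of E19.5. Mcm6 led in BCL11b-ID2-, with a mean of 305 normalised counts per kilobase, followed by Mcm3 at 229 and Mcm4 at 218, and Ube2c stood at 172. In BCL11blowID2low the order began with Ube2c at 849.8, Mki67 at 488 and Top2a at 395. Ube2c, Mki67 and Top2a were also the first 3 in BCL11b+ID2+, BCL11b+ID2- and, with Mki67 first, BCL11b-ID2+. DN2 mixed the classes, with Ube2c at 416, Mcm6 at 345 and Pcna at 315.

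Among BCL11b-negative DN1 cells at E19.5, the ID2-positive gate had fewer transcripts of most helicase members than the ID2-negative gate. It had more of some chromosome and spindle transcripts. Of 24 S-phase members 9 were called, each lower, beside 7.03% of all genes lower, and 7 of the 9 belong to the helicase. Cdc45, also of the helicase, went the other way without passing (log2 difference 0.66, mean per kilobase 32.9 against 21.1). Of 19 mitotic members 4 were called, each higher, beside 8.82% of all genes higher. The median log2 difference was -0.70 over the S-phase members, 0.19 over the mitotic members and -0.01 over all genes.

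Gins1, a GINS subunit of the active helicase, stood at 21.6, 21.5 and 21.8 in BCL11b-ID2+ against 123, 119 and 68.2 in BCL11b-ID2-, 4.78-fold lower on mean values (log2 difference -2.16 ± 0.54, SE; adjusted p = 0.00674). Gins2, its partner, was 150.3, 20.7 and 137 against 185, 298 and 460.0, 3.06-fold lower on mean values (log2 difference -1.94 ± 0.55, SE; adjusted p = 0.0159). Neither gene overlapped between the gates, although library 2 of BCL11b-ID2+ set much of the Gins2 difference. Mcm7 was 171, 138 and 156 against 350.1, 404 and 343, 2.36-fold lower on mean values (log2 difference -1.23 ± 0.25, SE; adjusted p = 0.00102), and Mcm6 was 523, 804 and 791 against 1393, 1566 and 1317, 2.02-fold lower on mean values (log2 difference -1.04 ± 0.32, SE; adjusted p = 0.031). The other S-phase calls, Mcm2, Mcm3, Mcm5, Rrm1 and the licensing factor Cdt1, had log2 differences from -1.16 to -0.68, and Cdt1 alone of the 9 overlapped between the gates. Gins1 and Mcm7 kept their calls without any single library, Gins2 lost its call without library 2 of BCL11b-ID2+ or library 4 of BCL11b-ID2-, and Mcm6 without library 1 of BCL11b-ID2+ or any library of BCL11b-ID2-.

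In the other direction, Mki67 was 2.01-fold higher on mean values (log2 difference 1.0 ± 0.18, SE; adjusted p = 4.0e-04), at the values per library given above. Nusap1, which bundles spindle microtubules, stood at 615, 594 and 637 against 246, 361 and 341, 1.95-fold higher on mean values (log2 difference 0.98 ± 0.21, SE; adjusted p = 0.00177). Both genes kept their call in each of 18 fits that left out 1 library. Cenpf, a kinetochore protein, was 535, 599.6 and 867 against 195, 466 and 435 (1.83-fold higher; adjusted p = 0.0393), and Top2a was 1.43-fold higher (adjusted p = 0.0413). The call of Top2a was lost without any 1 of the 6 libraries of these gates (adjusted p up to 0.163), and that of Cenpf without library 2 or 4 of BCL11b-ID2+ or library 1 of BCL11b-ID2-. No library of the 2 gates overlapped for any of these 4. Without the filter on low values the mitotic calls numbered 2, with Cenpf and Top2a lost, and Mcm6 was not called by edgeR. The S-phase calls numbered 3 without library 1 of BCL11b-ID2+ or library 2 of BCL11b-ID2- and 5 without library 4 of BCL11b-ID2+ or library 1 of BCL11b-ID2-, and the mitotic calls numbered 2 without library 2 or 4 of BCL11b-ID2+ or library 1 of BCL11b-ID2-.

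The BCL11b-ID2- libraries serve in 4 comparisons here, with BCL11b-ID2+, BCL11b+ID2-, BCL11blowID2low and DN2, so these 4 share 1 set of control libraries. Macrophage and granulocyte, stromal and erythroid marker sums also reached their highest E19.5 values in that gate. The summed macrophage and granulocyte markers were 2186 to 3329.7 in it, with Mpo of myeloid progenitors at 1704 to 2567, against 12.1 to 1241 in the 15 other libraries. All 11 genes of that list were in the table and none was at 0 in all 3 libraries of the gate, while Elane was at 0 in the 15 others. Mpo, with a mean of 2051, made up most of the sum. Mean values of Csf1r, Fcgr3, Lyz2, Mpo, Elane, S100a8 and S100a9 were higher than in BCL11b+ID2+. Those of the macrophage genes Adgre1 (20.6 against 70.9), Cd68 (36.6 against 184), C1qa (8.32 against 99.7) and C1qb (20.5 against 174) were lower. BCL11b+ID2+ is in none of these 4 comparisons. Of the populations that are, BCL11b-ID2+ had higher means of Fcgr3 (235 against 34.5) and Cd68 (45.8). BCL11blowID2low had higher means of Adgre1 (26.6), Cd68 (48.3), C1qa (29.7) and C1qb (90.3). All other means of the list in these 4 populations were lower than in BCL11b-ID2-. Stromal markers summed to 941 to 1316 (elsewhere 75.9 to 977) and erythroid markers to 231 to 501 (elsewhere 0 to 251), both with overlap. Pdgfrb (mean 644) and Pecam1 (mean 263) made up most of the stromal sum. Hbb-bt was the largest erythroid marker, with a mean of 221, beside 159 in DN2. Early thymocyte markers summed to 4524 to 4662, against 5253 to 14985 elsewhere, and the progenitor receptor Flt3 stood at 166 to 231. The members of that list were mixed. Thy1 (mean 126) and Il7r (mean 160) were lowest in this gate. Kit went the other way, with a mean of 1057 against 695 in DN2 and 266 in BCL11b-ID2+. It was 173 in BCL11b+ID2- and 51.8 in BCL11blowID2low, and only BCL11b+ID2+ was higher, at 1201. The part of these transcripts in the differences with BCL11b-ID2- was not tested.

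Between the ID2-negative gates, the BCL11b+ID2- cells had more of 5 mitotic transcripts, Ube2c, Mki67, Top2a, Nusap1 and Bub1b, than the BCL11b-ID2- cells. Of 19 mitotic members 5 rose, beside 7.51% of all genes higher, and of 24 S-phase members 1 fell, beside 7.42% of all genes lower. The medians of the log2 difference were 0.73 for mitotic members, -0.41 for S-phase members and -0.05 for all genes. Ube2c, which feeds ubiquitin to the anaphase-promoting complex, stood at 1602, 1161 and 1057 in BCL11b+ID2- against 442, 449.9 and 452, 2.84-fold higher on mean values (log2 difference 1.48 ± 0.25, SE; adjusted p = 2.2e-04). Mki67 was 2.34-fold higher on mean values (log2 difference 1.21 ± 0.18, SE; adjusted p = 5.8e-05) and Top2a was 2.17-fold higher on mean values (log2 difference 1.12 ± 0.17, SE; adjusted p = 6.1e-05). For each of the 3 genes the lowest BCL11b+ID2- library exceeded the highest BCL11b-ID2- library.

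Nusap1 stood at 559, 572 and 659 in BCL11b+ID2- and was 1.89-fold higher (adjusted p = 0.00317), and Bub1b, a kinase-like protein of the spindle checkpoint, was 1.71-fold higher at 474, 516 and 401 against 309, 266 and 238 (adjusted p = 0.0319). Mcm6 was the S-phase member that fell, to 272, 636 and 778 from 1393, 1566 and 1317, 2.54-fold lower on mean values (log2 difference -1.47 ± 0.32, SE; adjusted p = 0.00278). These gates did not overlap for any of the 3. All 19 mitotic differences were above 0, and 21 of 24 S-phase differences were below 0, although most did not pass. Mcm6, Mki67, Nusap1, Top2a and Ube2c kept their calls without any single library. The S-phase calls numbered 3 without library 4 of BCL11b+ID2-.

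The BCL11blowID2low gate stood farthest from BCL11b-ID2- in the mitotic members. Of 19, 8 rose, beside 6.7% of all genes higher (and 7.35% lower), with a median log2 difference of 0.87, against -0.14 over all genes. Ube2c reached 2119.7, 2941 and 1568 against 442, 449.9 and 452, 4.93-fold higher on mean values (log2 difference 2.25 ± 0.25, SE; adjusted p = 1.2e-06). Mki67 was 3.22-fold higher on mean values (log2 difference 1.69 ± 0.18, SE; adjusted p = 7.7e-07), Top2a was 2.55-fold higher (adjusted p = 6.9e-06) and Nusap1, at 770.2, 950.5 and 741, was 2.6-fold higher (adjusted p = 5.1e-05). None of the 4 overlapped between the gates, and each kept its call without any single library.

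Bub1b, the cyclins Ccna2 and Ccnb2, and Tpx2, which activates Aurora A on the spindle, were the other 4 that rose, with log2 differences from 0.79 to 1.23. Of the S-phase members limma called 0 of 24, with 2 at an unadjusted p under 0.05 and 0 by edgeR and by DESeq2. Their median log2 difference was -0.01, with 11 above and 13 below 0. The mitotic calls numbered 5 without library 1 or 2 of BCL11b-ID2-, and 5 in a fit of these 2 gates alone.

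**Figure D3:**
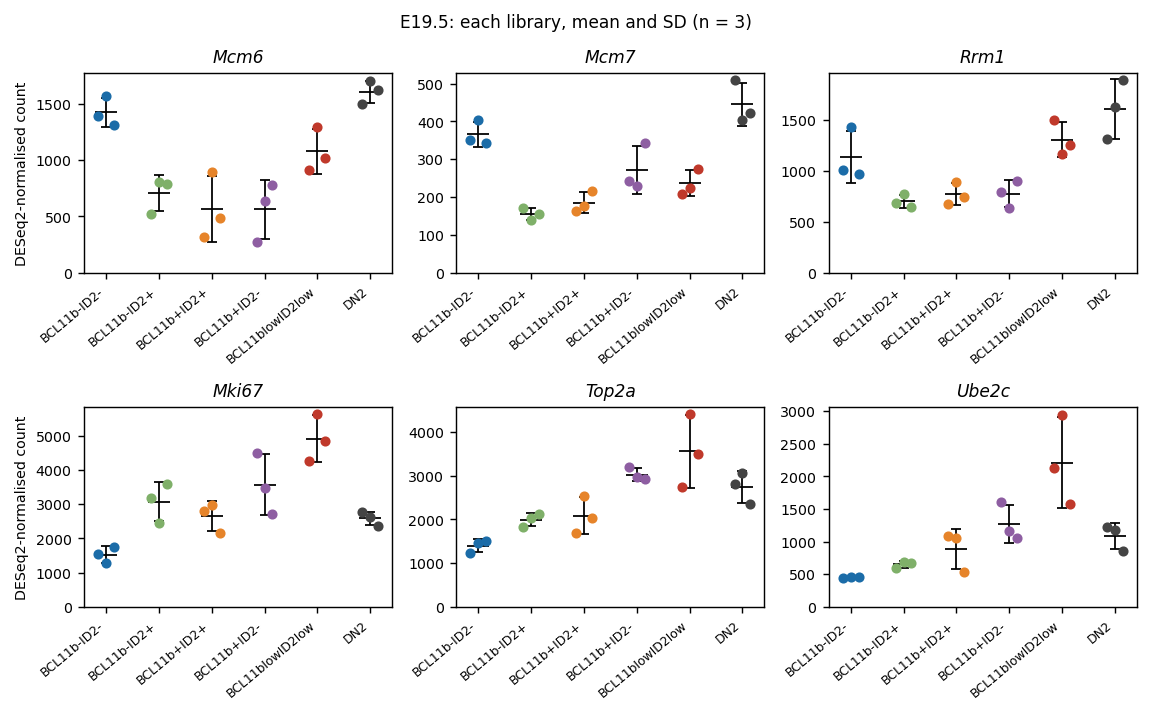
DESeq2-normalised counts at E19.5 of Mcm6, Mcm7 and Rrm1 (S-phase, top) and Mki67, Top2a and Ube2c (mitotic, bottom); each dot is 1 library, and the bar and whiskers give mean and SD (n = 3). BCL11b-ID2- holds the lowest values of the 3 mitotic genes, yet its Mcm6 values, 1317 to 1566, lie above every library of BCL11b-ID2+, BCL11b+ID2+ and BCL11b+ID2-.

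Some members of both classes were higher in DN2 than in BCL11b-ID2-. Of 19 mitotic members 4 rose and of 24 S-phase members 1 rose, beside 0.903% of all genes higher and 2.08% lower. Median log2 differences were 0.77 and 0.43, against -0.07 over all genes. Ube2c was 1216, 1181 and 849 in DN2, 2.41-fold higher on mean values (log2 difference 1.25 ± 0.25, SE; adjusted p = 0.00489), and Nusap1 was 782, 834 and 556, 2.29-fold higher on mean values (log2 difference 1.19 ± 0.21, SE; adjusted p = 0.00126). Top2a was 1.96-fold higher (adjusted p = 0.00137) and Mki67 1.70-fold higher (adjusted p = 0.0189). Rrm2 was the S-phase member that rose, 2.16-fold higher on mean values (log2 difference 1.12 ± 0.28, SE; adjusted p = 0.0261). No library overlapped between the gates for any of the 5 genes. The call of Rrm2 was lost without library 1, 2 or 4 of BCL11b-ID2- or library 2 or 4 of DN2, and that of Mki67 without library 1 or 2 of either population.

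Among the BCL11b-positive gates, 2 members were called lower with ID2, a share of each class near that of all genes. Of 24 S-phase members 1 fell, Cdc45, and of 19 mitotic members 1 fell, Top2a, beside 3.61% of all genes lower and 5.12% higher. Cdc45, which completes the active helicase, stood at 39.2, 78.5 and 38.9 in BCL11b+ID2+ against 109, 174 and 106 in BCL11b+ID2-, 2.48-fold lower on mean values (log2 difference -1.34 ± 0.41, SE; adjusted p = 0.0399). Top2a stood at 1689.6, 2535 and 2033 against 3191, 2981 and 2917, 1.45-fold lower on mean values (log2 difference -0.56 ± 0.17, SE; adjusted p = 0.0433). The gates did not overlap for either gene. Bub1b (-0.76 ± 0.24, adjusted p = 0.0528), the kinetochore motor Cenpe (-0.78 ± 0.27, adjusted p = 0.0806) and Mcm10 (-1.51 ± 0.56, adjusted p = 0.104), given as log2 difference ± SE, were next by p and did not pass. Both calls were lost with edgeR and without the filter, and that of Top2a also with TMM scaling, with DESeq2 and, like Cdc45, in a fit of the 2 gates alone. Cdc45 was lost without library 1 or 4 of BCL11b+ID2+, any library of BCL11b+ID2- or library 4 of BCL11b-ID2+, and Top2a without these or without library 1 or 2 of BCL11b-ID2+ or library 2 or 4 of BCL11b-ID2-.

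The summed macrophage and granulocyte markers differed between the same gates, at 432 to 1241 in BCL11b+ID2+ against 12.1 to 45 in BCL11b+ID2-, with Elane and S100a9 at 0 in the former and Elane and Lyz2 in the latter, and their part was not tested. Between the ID2-positive gates, limma called 0 of 24 S-phase and 0 of 19 mitotic members, with 2 and 0 at an unadjusted p under 0.05 and 0 by edgeR and DESeq2, beside 6.03% of all genes called. Cdc45 was 39.2, 78.5 and 38.9 in BCL11b+ID2+ against 89.2, 141 and 116 in BCL11b-ID2+ (log2 difference -1.18 ± 0.41, SE; adjusted p = 0.0979). E2f1, an activating E2F factor, stood at 42.7, 39.8 and 54.1 against 109, 146 and 59.6 (adjusted p = 0.226), and Rrm2 overlapped (adjusted p = 0.373). These 3 had the smallest p and did not pass.

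For Mki67 and Top2a the ID2 difference was not the same in BCL11b-positive and BCL11b-negative cells, and 3 other members were called less stably. The interaction subtracts the ID2 difference of the BCL11b-negative gates from that of the BCL11b-positive gates. By it, 4 of 19 mitotic and 1 of 24 S-phase members were called, each with a negative term, beside 4.7% of all genes negative and 4.57% positive. The S-phase share (4.17%) was near that of all genes. Mki67 had a log2 difference of -0.41 with BCL11b and 1.0 without it, an interaction of -1.42 ± 0.26 (SE; adjusted p = 9.6e-04). For Top2a the 2 differences were -0.56 and 0.52, an interaction of -1.08 ± 0.24 (SE; adjusted p = 0.00573). The other terms called were those of Cenpf (-1.44 ± 0.43, adjusted p = 0.0381), Nusap1 (-0.97 ± 0.30, adjusted p = 0.0395) and Cdc45 (-2.0 ± 0.57, adjusted p = 0.0285), lost in 7, 9 and 7 of 18 fits that left out 1 library. For Cdc45 the 2 differences were -1.34 with BCL11b and 0.66 without it. All 4 gates enter this term, BCL11b-ID2- with its myeloid transcripts among them. Mki67 and Top2a kept their calls without any single library. Without the filter the mitotic calls numbered 2 and Cdc45 was lost, and edgeR did not call Nusap1.

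Leaving out library 1 or 4 of BCL11b+ID2+, library 2 of BCL11b+ID2-, library 2 or 4 of BCL11b-ID2+ or library 2 or 4 of BCL11b-ID2- ended the Cdc45 interaction. The Cenpf term was lost without any library of BCL11b+ID2+, library 1 of BCL11b+ID2-, library 2 or 4 of BCL11b-ID2+ or library 1 of BCL11b-ID2-. The Nusap1 term was lost without library 1 or 4 of BCL11b+ID2+, library 2 or 4 of BCL11b+ID2-, any library of BCL11b-ID2+ or library 1 or 4 of BCL11b-ID2-. The mitotic interaction calls numbered 2 without library 4 of BCL11b+ID2+, library 2 or 4 of BCL11b-ID2+ or library 1 of BCL11b-ID2-.

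DN2 cells were set against the DN1 cells of the BCL11b+ID2- gate. Replication members of several roles were higher in DN2. Of 24 S-phase members 9 were called, each higher, beside 6.77% of all genes higher (9.41% lower): Mcm4, Mcm5, Mcm6 and Mcm7 of the helicase, Pola1 and Pcna of DNA synthesis, Rrm1, the cyclin Ccne2 and the methylation keeper Uhrf1. All 24 differences were above 0, with a median log2 difference of 0.85, against -0.01 over all genes. Of 19 mitotic members limma called 0, with 2 at an unadjusted p under 0.05 and 0 by edgeR and by DESeq2, and a median of 0.39. The macrophage and granulocyte markers summed to 199 to 304 in DN2, with Mpo at 145 to 274 and Adgre1, Elane, S100a8 and S100a9 at 0, against 12.1 to 45 in BCL11b+ID2-, with Lyz2 and Elane at 0, and their part was not tested.

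Mcm6 stood at 1502, 1699 and 1621 in DN2 against 272, 636 and 778, 2.86-fold higher on mean values (log2 difference 1.64 ± 0.32, SE; adjusted p = 0.00106). Rrm1, the large subunit of ribonucleotide reductase, was 1310.3, 1627 and 1896 against 797, 635 and 897, 2.07-fold higher on mean values (log2 difference 1.05 ± 0.20, SE; adjusted p = 6.7e-04). Pola1, the catalytic subunit of the priming polymerase, was 732, 729 and 578 against 257, 339.6 and 344, 2.17-fold higher on mean values (log2 difference 1.12 ± 0.23, SE; adjusted p = 0.00174). None of the 3 overlapped, and each was called without any single library. Ccne2, cyclin E2, stood at 110.2, 194 and 207 against 17.4, 105 and 67.3, 2.69-fold higher on mean values (log2 difference 1.69 ± 0.57, SE; adjusted p = 0.0453), without overlap. The call of Ccne2 was lost with edgeR, without the filter, in a fit of the 2 populations alone and in 9 of 18 fits that left out a library. The S-phase calls numbered 5 with edgeR, 3 without the filter and 5 with the 2 populations alone, and 3 without library 1 of BCL11b+ID2- or library 2 of DN2 and 5 without library 1 or 4 of DN2, while the mitotic calls numbered 1 without library 4 of BCL11b+ID2-.

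**Figure D4:**
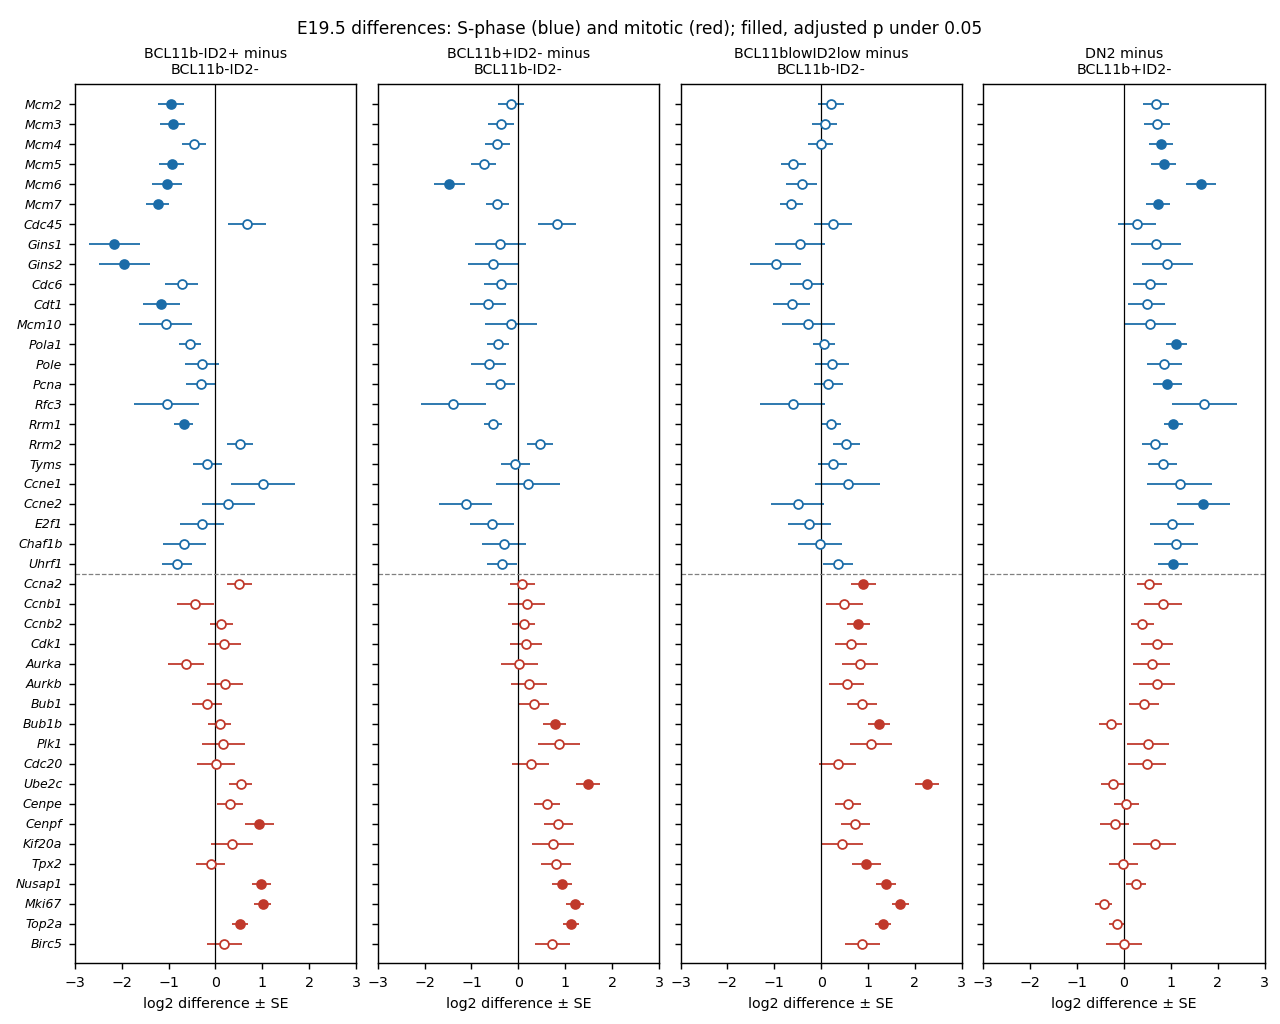
Log2 differences with SE of 43 members (Kif11 left out) in 4 comparisons at E19.5, S-phase members in blue above the dashed line and mitotic members in red below it; filled circles have adjusted p under 0.05. S-phase calls lie left of 0 in the first panel (9) and right of 0 in the fourth (9), and mitotic calls lie right of 0 in the first 3 panels (4, 5 and 8), which share the BCL11b-ID2- libraries.

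Members of both classes were higher in BCL11blowID2low than in BCL11b+ID2+ cells. Of 19 mitotic members 6 rose and of 24 S-phase members 2 rose, beside 1.46% of all genes higher and 2.97% lower, with medians of 0.77 and 0.73 against -0.09 over all genes. Aurka, the Aurora kinase of the spindle poles, stood at 166, 249 and 233 against 105, 59.7 and 84.4, 2.6-fold higher on mean values (log2 difference 1.38 ± 0.39, SE; adjusted p = 0.0428). Ube2c was 2119.7, 2941 and 1568 against 1081, 1055 and 533, 2.48-fold higher on mean values (log2 difference 1.34 ± 0.25, SE; adjusted p = 0.0022). The checkpoint gene Bub1b was 667, 770.4 and 497 against 333, 279 and 218, 2.33-fold higher on mean values (log2 difference 1.22 ± 0.24, SE; adjusted p = 0.00333), and Bub1, its partner kinase, was 654, 396 and 319.6 against 167, 182 and 253, 2.27-fold higher on mean values (log2 difference 1.14 ± 0.32, SE; adjusted p = 0.039). Mki67 and Top2a also rose. Mcm2 (2.14-fold higher; adjusted p = 0.0237) and Rrm1, at 1501, 1171 and 1252 against 680.1, 893 and 744 (1.69-fold higher; adjusted p = 0.0262), were the S-phase calls. The gates were apart for each of these 8 genes.

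Aurka was lost with edgeR and in 10 of 18 fits without a library, Aurka and Bub1 were lost without the filter, the 2 gates alone gave 3 mitotic calls and 1 S-phase call, and DESeq2 called 4 S-phase members. The mitotic calls numbered 3 without library 1 of BCL11b+ID2+ or library 2 of BCL11blowID2low. The S-phase calls numbered 0 without library 1 or 4 of BCL11b+ID2+, 1 without library 2 of BCL11blowID2low, 4 without library 2 of BCL11b+ID2+ and 5 without library 1 of BCL11b+ID2-. The macrophage and granulocyte markers summed to 190.1 to 377 in BCL11blowID2low (Elane and S100a8 at 0) against 432 to 1241 in BCL11b+ID2+ (Elane and S100a9 at 0), without overlap, and later thymocyte markers to 439 to 851 against 401 to 619, with overlap. Early thymocyte markers summed to 5253 to 7060 against 12827 to 14985, without overlap. Among them Kit was 43.6 to 67.1 against 1135 to 1251 and Il2ra 124 to 363 against 2038 to 2626, while Ptprc overlapped. The part of these transcripts was not tested.

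The next 2 comparisons were chosen after seeing the data. BCL11blowID2low against BCL11b+ID2- gave 1 of 24 S-phase members, Rrm1, higher (0.76 ± 0.20 log2 difference ± SE, adjusted p = 0.0216), beside 3.06% of all genes higher and 3.85% lower. Its libraries, 1501, 1171 and 1252, lay above 797, 635 and 897 in BCL11b+ID2-. Of 19 mitotic members limma called 0, with 5 at an unadjusted p under 0.05 and 2 by edgeR and 2 by DESeq2. Mcm6 (adjusted p = 0.0517), Ccna2 (adjusted p = 0.0653) and Ube2c (adjusted p = 0.0678) were next by p and did not pass, with log2 differences of 1.05, 0.82 and 0.77. The S-phase count fell to 0 without library 1 or 2 of BCL11b+ID2- or library 1 of BCL11blowID2low and with the 2 gates alone, and rose to 2 without library 1 or 2 of BCL11b+ID2+ or library 4 of BCL11b+ID2-. The mitotic count was 1 without library 1 of BCL11blowID2low and 2 without its library 4 or library 4 of BCL11b+ID2+.

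In DN2 against BCL11blowID2low, Mki67, Ube2c and Bub1b fell and Mcm7 rose, the last a share of its class below that of all genes. Of 24 S-phase members 1 rose, Mcm7, beside 6.54% of all genes higher, and of 19 mitotic members 3 fell, beside 8.23% lower. Mcm7 was 510.3, 404 and 421 against 209, 225 and 275, 1.88-fold higher on mean values (log2 difference 0.91 ± 0.25, SE; adjusted p = 0.0136). Ube2c was 2.04-fold lower (adjusted p = 0.00825), Mki67 1.90-fold lower (adjusted p = 0.00103) and Bub1b 1.68-fold lower (adjusted p = 0.04) in DN2. None of the 4 overlapped. Of the S-phase differences 23 of 24 were above 0 (median 0.61), and of the mitotic ones 7 of 19 (median -0.15). The call of Mki67 held without any single library. The Mcm7 call was lost without library 1 of BCL11blowID2low or library 1 of DN2, the S-phase count was 2 without library 4 of BCL11blowID2low or library 2 of BCL11b-ID2+ and with DESeq2, and the mitotic count was 1 without library 2 of BCL11blowID2low or library 4 of DN2.

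Other genes of these pathways, chosen from textbook knowledge with earlier results of these data known, were counted in the same comparisons. Of 42 other S-phase genes tested at E19.5, 7 rose in DN2 against BCL11b+ID2-, beside 6.77% of all genes higher. Orc1, which marks origins, was the largest (3.09 ± 0.82 log2 difference ± SE). In BCL11b-ID2+ against BCL11b-ID2-, 4 of these 42 fell, a share near the 7.03% of all genes lower. The largest were Cdc25a (-1.48 ± 0.33) and Dut (-1.44 ± 0.46). Asf1b (1.67 ± 0.45) was the 1 that rose, beside 8.82% of all genes higher. Of 59 other mitotic genes 4 rose there and 2 fell, with Pbk (-1.41 ± 0.42) the largest fall, both shares below those of all genes. Of these 59, 26 rose in BCL11blowID2low against BCL11b-ID2-, more than in any other pair of gates tested, beside 6.7% of all genes higher. The largest were Cdc25b, the phosphatase that activates CDK1 (4.77 ± 0.55), and the kinesin Kif14 (2.05 ± 0.39). Of the other S-phase genes there, 2 rose, with Asf1b the largest (1.64 ± 0.45), and 2 fell, Rfc2 (-2.56 ± 0.42) and Cdc25a (-1.06 ± 0.33). Both shares were below those of all genes, 6.7% higher and 7.35% lower.

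Cdc25b was also higher than in BCL11b-ID2- in BCL11b+ID2- (3.46 ± 0.55), BCL11b-ID2+ (3.13 ± 0.55) and DN2 (2.24 ± 0.55), comparisons that share the BCL11b-ID2- libraries. In BCL11b+ID2- against BCL11b-ID2-, 8 other mitotic genes rose and 1 fell, Cdc25c (-1.51 ± 0.45), and of the other S-phase genes 1 rose and 1 fell. Of all genes, 7.51% were higher and 7.42% lower there. DN2 against BCL11b+ID2- called 8 other mitotic genes, each higher, beside 6.77% of all genes higher. Mybl2, the gene of B-MYB (2.49 ± 0.74), and Cdc25c (2.04 ± 0.45) were the largest. In that comparison 0 of the 19 mitotic members had passed. DN2 against BCL11b-ID2- called 9 other mitotic genes and 1 other S-phase gene, and BCL11blowID2low against BCL11b+ID2+ called 5 and 2, each higher. Of all genes, 0.903% and 1.46% were higher in these comparisons. Among the BCL11b-positive gates, Bub3 (-0.82 ± 0.25) and the deoxycytidine kinase Dck (-1.66 ± 0.25) were the 2 that fell with ID2. Each is a share of its class below the 3.61% of all genes lower. In the interaction 4 other mitotic genes had a negative term (6.78%, beside 4.7% of all genes negative), with Cdc25b and Kif23 the largest. There limma called 0 other S-phase genes (4 at an unadjusted p under 0.05). DN2 against BCL11blowID2low called 5 other S-phase genes, each higher with Rfc2 and Pold1 first, and 1 mitotic gene higher (Pbk) and 3 lower. Of all genes, 6.54% were higher and 8.23% lower. BCL11blowID2low against BCL11b+ID2- called 1 of each class, Rfc2 lower and Cdc25c higher, beside 3.85% of all genes lower and 3.06% higher. Between the ID2-positive gates limma called 0 and 0, with 4 S-phase and 3 mitotic genes at an unadjusted p under 0.05, beside 6.03% of all genes called. At E15.5 limma called 0 of 43 other S-phase and 0 of 57 other mitotic genes in each comparison, with 0 to 8 and 1 to 10 at an unadjusted p under 0.05. Of all genes, 0.0 to 1.52% were called there.

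E15.5 libraries gave far less precise values for the same genes. The median SD of log2 values within a population was 1.93 for S-phase and 1.25 for mitotic members, against 0.43 and 0.40 at E19.5. The deeper E15.5 libraries also detected fewer genes, 8277 to 12954 against 14387 to 18879. The median SE of a log2 difference between 2 gates of 3 libraries was 1.43 for S-phase and 1.27 for mitotic members. At E19.5 these were 0.34 and 0.31.

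Mki67 was the only member of 43 tested that passed by limma at E15.5. It stood at 38366, 29318 and 55937 in BCL11b+ID2+ against 12454, 8769 and 16148 in BCL11b+ID2-, 3.31-fold higher on mean values (log2 difference 1.72 ± 0.35, SE; adjusted p = 0.0191). The gates did not overlap. Other markers differed between these gates too and their part was not tested: the later thymocyte list (5 of 6 genes in the table) summed to 21.8 to 439.9 in BCL11b+ID2+, with Cd4 and Cd8b1 at 0, against 8049 to 17928 in BCL11b+ID2-, with Cd4 at 0. The stromal list (9 of 11) summed to 9.82 to 279, with Krt5, Krt8 and Col3a1 at 0, against 742 to 1418, with Col3a1 at 0. Rag1 (mean 7239) and Rag2 (4933) made up most of the thymocyte sum of BCL11b+ID2-, and both were also high in DN2 (3953 and 4685). Most of its stromal sum was Pdgfrb (534) and Pecam1 (475). Mki67 was the mitotic member called of 19 in this comparison, beside 0.398% of all genes higher, and of 24 S-phase members limma called 0, with 1 at an unadjusted p under 0.05, 0 by edgeR and 1 by DESeq2, beside 0.719% of all genes called in either direction. The call was lost without library 1 or 3 of BCL11b+ID2+ or library 1 or 2 of BCL11b+ID2-, with adjusted p up to 0.0932, and also without the filter and in a fit of the 2 gates alone. At E19.5 the Mki67 values of the same gates overlapped (-0.41 ± 0.18, adjusted p = 0.195).

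In the other gates of E15.5, Mki67 was 10192, 10283 and 11837 in BCL11b-ID2-, 23238, 21574 and 24908 in BCL11b-ID2+ and 17092 and 6358 in DN2. BCL11b-ID2+ lay above BCL11b-ID2- without overlap (2.16-fold higher), but this difference did not pass (adjusted p = 0.194). By the moderated F test over all populations of E15.5, 1 of 19 mitotic members (Mki67, adjusted p = 0.00524) and 0 of 24 S-phase members were called by limma, beside 1.52% of all genes. For the S-phase members 2 had an unadjusted p under 0.05, and edgeR called 0 and DESeq2 2. Without the filter the F test called 0 mitotic members, and edgeR called 3 and DESeq2 2.

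**Figure D5:**
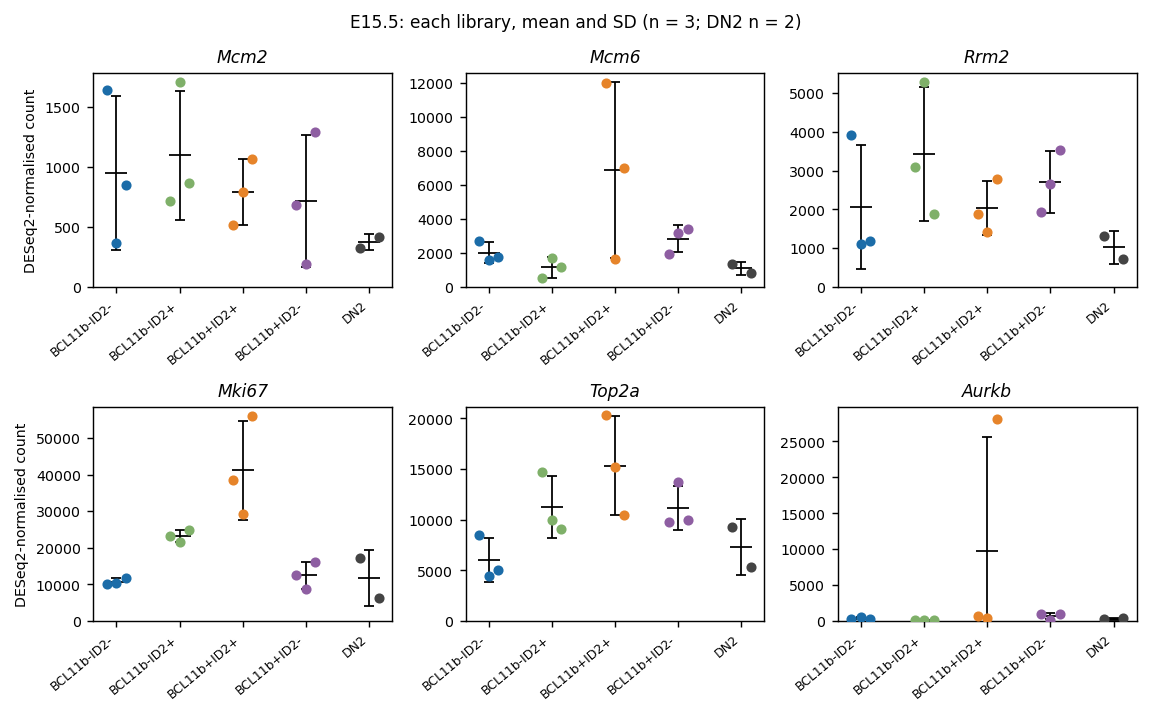
DESeq2-normalised counts at E15.5 of Mcm2, Mcm6 and Rrm2 (S-phase, top) and Mki67, Top2a and Aurkb (mitotic, bottom); each dot is 1 library, and the bar and whiskers give mean and SD (n = 3, DN2 n = 2). The 3 BCL11b+ID2+ libraries have the highest Mki67 values, and 1 of them holds Aurkb at 28134.

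The other fixed mitotic members at E15.5 varied between libraries of the same gate. Top2a stood at 8508, 4484 and 5000.1 in BCL11b-ID2-, 14735, 9958 and 9038 in BCL11b-ID2+, 20319, 15161 and 10501 in BCL11b+ID2+, 9775, 13666 and 9964 in BCL11b+ID2- and 9285 and 5315 in DN2. BCL11b-ID2- lay below the other 3 DN1 gates. Aurkb stood at 766, 481 and 28134 in BCL11b+ID2+, 1013, 197 and 932 in BCL11b+ID2-, 326, 561 and 282 in BCL11b-ID2-, 119, 124 and 152 in BCL11b-ID2+ and 217 and 430.2 in DN2, so that library 3 of BCL11b+ID2+ alone set the mean of its gate, and this library also detected the fewest genes, 8277. Cdk1 was 3, 259.7 and 1793 in BCL11b+ID2+, 21.9, 31.5 and 108 in BCL11b+ID2-, 350.3, 308 and 27 in BCL11b-ID2-, 196, 444 and 76.9 in BCL11b-ID2+ and 327 and 104 in DN2. Ccnb1 was 569.8, 159.5 and 109.6 in BCL11b+ID2+, 110.0, 162 and 397 in BCL11b+ID2-, 499, 187 and 49.2 in BCL11b-ID2-, 4, 313 and 120.4 in BCL11b-ID2+ and 54 and 129 in DN2. The gates overlapped for both, and libraries of BCL11b+ID2+ ran from the lowest to the highest Cdk1 value of the stage.

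The summed mitotic members at E15.5 ran from 24527 to 28886 in BCL11b-ID2- and 22136 to 40390.0 in DN2 over 40029 to 43341 in BCL11b+ID2- and 45185 to 65521 in BCL11b-ID2+ to 65697 to 158712 in BCL11b+ID2+. Mki67 and Top2a made up 41.9 to 70.2% of that sum. S-phase sums overlapped, at 12871 to 22181 in BCL11b-ID2-, 14302 to 21498 in BCL11b-ID2+, 16140.4 to 24232 in BCL11b+ID2+, 18988 to 20184 in BCL11b+ID2- and 16340.1 to 19660.0 in DN2.

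Of the fixed S-phase members at E15.5, Mcm2 stood at 1637, 362 and 852 in BCL11b-ID2-, 711, 1708 and 866 in BCL11b-ID2+, 519, 786 and 1065 in BCL11b+ID2+, 683, 188 and 1286 in BCL11b+ID2- and 328 and 419 in DN2. Mcm5 stood at 2461, 1031 and 477 in BCL11b-ID2-, 25.6, 1741 and 291 in BCL11b-ID2+, 209.9, 532 and 792 in BCL11b+ID2+, 641, 34.8 and 1367 in BCL11b+ID2- and 298 and 99.3 in DN2. For both genes the DN1 gates all overlapped each other. Pcna was 652, 529 and 336 in BCL11b-ID2-, 334, 677 and 644 in BCL11b-ID2+, 259.9, 376 and 2802 in BCL11b+ID2+, 629, 778 and 1144 in BCL11b+ID2- and 1036 and 813 in DN2. Rrm2 was 3908, 1110.3 and 1176 in BCL11b-ID2-, 3088, 5289.8 and 1894 in BCL11b-ID2+, 1892, 1413 and 2779 in BCL11b+ID2+, 1944, 2651 and 3537 in BCL11b+ID2- and 1319.6 and 727 in DN2. Only DN2 with BCL11b+ID2-, BCL11b-ID2+ and BCL11b+ID2+ was without overlap for Rrm2. Tyms was 1680.3, 904 and 279 in BCL11b-ID2-, 684, 711 and 455 in BCL11b-ID2+, 685, 628 and 1580.2 in BCL11b+ID2+, 363, 283 and 399 in BCL11b+ID2- and 613 and 1834 in DN2, with BCL11b+ID2- below BCL11b-ID2+, BCL11b+ID2+ and DN2.

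In 6 further comparisons of E15.5, limma called 0 of 24 S-phase and 0 of 19 mitotic members. The interaction had 1 and 0 members at an unadjusted p under 0.05, beside 0.0% of all genes called. BCL11b-ID2+ against BCL11b-ID2- had 0 and 2 (background 0.467%), BCL11b+ID2- against BCL11b-ID2- 0 and 1 (background 0.00972%) and BCL11b+ID2+ against BCL11b-ID2+ 4 and 5 (background 0.0778%). DN2 against BCL11b+ID2- had 3 and 0 and DN2 against BCL11b-ID2- 0 and 0, both beside 0.0% of all genes called. By edgeR the calls were 0 apart from 1 mitotic member in BCL11b+ID2+ against BCL11b-ID2+. DESeq2 called 3 S-phase members there, 1 S-phase and 1 mitotic member in DN2 against BCL11b+ID2-, and 1 S-phase member in the interaction.

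The members of smallest p in these comparisons did not pass. In BCL11b+ID2+ against BCL11b-ID2+, Mcm6 stood at 11970.0, 1663 and 6982 against 540.4, 1729 and 1168 (log2 difference 2.33 ± 0.71, SE; adjusted p = 0.225), with library 2 of the former inside the range of the latter. Aurkb (adjusted p = 0.24) and Tpx2, at 4799, 1971 and 16739.9 against 793, 1688 and 1462 (adjusted p = 0.367), did not overlap between these gates. Mcm3, at 1567, 1206 and 1631 against 204, 946 and 96.5 in the BCL11b-positive gates (adjusted p = 0.292), was also without overlap, while Tpx2 (adjusted p = 0.317) and Cenpf (adjusted p = 0.326) overlapped there. Among BCL11b-negative cells, Top2a (1.87-fold higher; adjusted p = 0.437) and Cenpf (2.83-fold higher; adjusted p = 0.629) followed Mki67. In BCL11b+ID2- against BCL11b-ID2-, Top2a had a log2 difference of 0.93 ± 0.39 (SE; adjusted p = 0.665), Bub1 of 1.65 ± 0.94 (adjusted p = 0.811) and Cdt1 of -3.63 ± 2.1 (adjusted p = 0.814).

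With the 2 DN2 libraries of E15.5, Rfc3, a subunit of the clamp loader, stood at 272 and 1451 against 11.7, 5.44 and 1.58 in BCL11b+ID2- and 0, 123 and 77.6 in BCL11b-ID2-, without overlap and without passing (adjusted p = 0.628 and 0.856). Cdt1 stood at 54.7 and 904 in DN2 and 2.91, 0 and 34.8 in BCL11b+ID2- (adjusted p = 0.713). E2f1 was 0 and 1.23 in DN2, against 3117, 27.2 and 3.16 in BCL11b+ID2- (adjusted p = 0.765) and 0.711, 217 and 268 in BCL11b-ID2- (adjusted p = 0.875), so single libraries set the means. Nusap1 stood at 3375 and 2023 in DN2 against 1868, 1049 and 667 in BCL11b-ID2- (adjusted p = 0.875). In the interaction Mcm10, Aurkb and Ccnb2 came first by p, with adjusted p from 0.766 to 0.809.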

How the data were processed

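RNA-seq was done on 32 libraries, 14 of E15.5 and 18 of E19.5. Total RNA was amplified with the Ovation RNA-seq System V2, per the labels' protocols. Reads were trimmed with Trim Galore 0.50, aligned with STAR 2.6.0a to GRCm38 and scaled with DESeq2 1.18.1, per the submitters' processing notes. The counter, the annotation and the use of strand are not given in the sources used here. The deposited values are a signal, DESeq2-normalised read counts, in 1 table for each stage. Dividing by the value of 1 read gave whole reads for 100.0% of values within 0.01 reads, and no column belonged to another sample.

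Each stage was fitted alone with limma 3.58.1 (R 4.3.3) on log2(value + 1), all populations together, with trend and robust options. A gene was kept where 3 or more libraries reached 10, and p-values were adjusted over all of them by the Benjamini-Hochberg method with a threshold of 0.05. The filter removed 1 member, Kif11. The alternatives were a pseudocount of 8, no filter, TMM scaling without mitochondrial genes, edgeR 4.0.16 and DESeq2 1.42.0 on the recovered reads, a replicate block, only the populations compared, and leaving out each library. The scripts were tested on simulated data.

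For 10 fixed members every population's values are given. In each comparison up to 4 called members per class and direction were named, those of largest difference without overlap whose higher group averaged 100 or more, and the 3 of smallest p where fewer than 3 passed. Other pathway genes are named by the 2 largest calls in each direction. A gene that this rule would name is not reported here. Genes named beyond this were chosen after their values were seen. The members and lists were chosen with earlier results of these data known.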

Additional observations from a re-analysis of the deposited data

Results flagged for a closer look

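At E19.5 the interaction term of limma, which compares the ID2 difference of BCL11b-positive and BCL11b-negative DN1 cells, was called for 5 members. They were 4 of 19 mitotic and 1 of 24 S-phase members, beside 4.7% of all genes with a negative term. The interaction, a difference of log2 differences, was -2.0 for Cdc45, -1.44 for Cenpf, -1.42 for Mki67, -1.08 for Top2a and -0.97 for Nusap1. Mki67 and Top2a were called without any single library, and Cdc45, Cenpf and Nusap1 were lost in 7, 7 and 9 of 18 fits that left out 1 library.

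Another 5 members had non-overlapping gates with log2 differences of opposite sign at E15.5 and E19.5 under the same contrast. The share of all genes with such a pattern was not counted, so this number is not read as a result about the members. The difference between stages was not tested, the stages were normalised separately, none of the 5 passed at E15.5, and at E19.5 only Mcm6 did. In ID2-positive against ID2-negative cells of the BCL11b-positive gates, Cenpe had a log2 difference of 1.2 at E15.5 and -0.78 at E19.5. In DN2 against BCL11b+ID2-, Mcm6 had -1.37 and then 1.64, and Rrm2 had -1.43 and then 0.66. In DN2 against BCL11b-ID2-, Mcm3 had -0.59 and then 0.34, and Ccnb2 had -1.83 and then 0.51. Groups of 2 or 3 libraries are too small for the test of single outlying samples, which was not run.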

How the results depend on the processing

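Counts of called members kept within 1.5 times of the limma count on log2(value + 1) under each alternative except as follows, S-phase first and mitotic second, and no named member reversed its direction. Of 45 named calls, 0 were lost with a pseudocount of 8 or with the replicate block, 1 with DESeq2, 1 with TMM scaling, 6 with edgeR, 9 with only the populations compared and 12 with no filter, and 21 were lost without at least 1 library. The causes were not tested. At E15.5, DESeq2 gave 3 S-phase calls in BCL11b+ID2+ against BCL11b-ID2+, 1 and 1 in DN2 against BCL11b+ID2-, 1 S-phase call in BCL11b+ID2+ against BCL11b+ID2-, 1 S-phase call in the interaction and 2 and 2 in the F test. At that stage edgeR gave 1 mitotic call in BCL11b+ID2+ against BCL11b-ID2+ and 3 in the F test. The mitotic call of BCL11b+ID2+ against BCL11b+ID2- went to 0 with no filter and with only these gates, and that of the F test to 0 with no filter. At E19.5, DN2 against BCL11b+ID2- gave 5 S-phase calls with edgeR, 3 with no filter and 5 with only these populations. DN2 against BCL11blowID2low gave 2 S-phase calls with DESeq2 and 2 with only these populations. BCL11b-ID2+ against BCL11b-ID2- gave 2 mitotic calls with no filter, and the interaction 0 and 2. BCL11b+ID2+ against BCL11b+ID2- gave 2 S-phase calls with DESeq2, 0 with edgeR and 0 with no filter, and 0 mitotic calls with TMM, edgeR, no filter and only these gates. BCL11blowID2low against BCL11b+ID2- gave 2 S-phase calls with TMM, 2 with a pseudocount of 8 and 0 with only these gates, and 2 mitotic calls with each of DESeq2, TMM and edgeR. BCL11blowID2low against BCL11b+ID2+ gave 4 S-phase calls with DESeq2, 1 with only these gates, and 3 mitotic calls with only these gates. BCL11blowID2low against BCL11b-ID2- gave 5 mitotic calls with only these gates.

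Replicate numbers are shared between gates, but the main fit did not take them as pairs, since the labels state no pairing. The correlations of same-numbered libraries' deviations were -0.046 to 0.039 over 26 pairs at E15.5, with 8 of 14 libraries correlating best with their own number. At E19.5 they were 0.002 to 0.129 over 45 pairs, with 1 over 0.1 and 17 of 18 libraries correlating best with their own number. So at E19.5 libraries of the same number deviated together, if weakly, which the main fit leaves out. This comes from the data and not from the design. With the replicate block, S-phase calls numbered 2 in DN2 against BCL11blowID2low, 2 in BCL11blowID2low against BCL11b+ID2- and 6 in BCL11blowID2low against BCL11b+ID2+. Without it these were 1, 1 and 2. Mitotic calls with the block numbered 2 in BCL11b+ID2+ against BCL11b+ID2- and 2 in BCL11blowID2low against BCL11b+ID2-, and other counts stayed within 1.5 times.

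Without 1 library at E15.5, the mitotic calls of BCL11b+ID2+ against BCL11b+ID2- ran from 0 to 1, and other counts were 0 to 0, apart from 1 to 1 mitotic in the F test. At E19.5 the ranges, S-phase then mitotic, were 12 to 17 and 8 to 12 in the F test, 3 to 10 and 2 to 4 in BCL11b-ID2+ against BCL11b-ID2-, 0 to 2 and 0 to 2 in BCL11b+ID2+ against BCL11b+ID2-, and 1 to 3 and 4 to 6 in BCL11b+ID2- against BCL11b-ID2-. They were 0 to 0 for both classes in BCL11b+ID2+ against BCL11b-ID2+, 0 to 1 and 2 to 5 in the interaction, 3 to 10 and 0 to 1 in DN2 against BCL11b+ID2-, 0 to 1 and 3 to 4 in DN2 against BCL11b-ID2- and 0 to 2 and 1 to 3 in DN2 against BCL11blowID2low. For BCL11blowID2low they were 0 to 0 and 5 to 9 against BCL11b-ID2-, 0 to 5 and 3 to 7 against BCL11b+ID2+ and 0 to 2 and 0 to 2 against BCL11b+ID2-. At E15.5 the spread between libraries, and at E19.5 the 3 libraries per gate, limit what can be told apart.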
